A study of Mus musculus with 15 samples.

Results

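GRHL1, GRHL2, OVOL1, OVOL2, ELF3, EHF, KLF5, ESRP1 and ESRP2 are transcription and splicing factors known from epithelial cells. These 9 genes were taken by symbol from the 24891 genes of a table of FPKM values (reads scaled to gene length and library size) from mouse tumors, and all 9 were listed. The 15 RNA-seq libraries came from 105K cells, a Tsc2-deficient mouse line derived from a kidney tumor of a Tsc2+/- animal. The cells had been grown under the skin of male wild-type C57BL/6J mice that were injected at 6 weeks of age. Every group carried a stably expressed shRNA, either the non-targeting control sh-NC or one of a pair directed against B7-H3, the immune checkpoint protein encoded by Cd276. Bulk tumors, which still held host cells, carried sh-NC or the first of these, sh-B7-H3 (1). Sorted tumor cells, which remained after magnetic depletion of non-tumor cells, carried sh-NC, the first, or the second, sh-B7-H3 (2). Each of the 5 groups had 3 libraries, and all of them rest on 1 cell line. The comparisons ask how tumor cells grown in mice differed in gene expression when they carried an shRNA against B7-H3.

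Grainyhead-like factors (GRHL1 and GRHL2) bind DNA at genes for cell junctions and epithelial barriers. ELF3 and EHF are ETS factors whose expression is largely restricted to epithelia, and KLF5 is a zinc finger factor of proliferating epithelial cells. OVOL1 and OVOL2 are zinc finger repressors that are known to oppose ZEB1 and other drivers of epithelial-mesenchymal transition. ESRP1 and ESRP2 are RNA-binding proteins that select epithelial exons, for example in FGFR2 and CD44. In the kidney such factors are known from the branching and lining epithelium of tubules and collecting ducts.

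The targeted gene did not follow the labels in every group. CD276 measured 33.99, 20.0 and 17.3 scaled FPKM in sorted sh-NC cells and 7.29, 14.0 and 11.5 in sorted cells labelled sh-B7-H3 (1), with no overlap. It measured 23.3, 25.4 and 25.7 in sorted cells labelled sh-B7-H3 (2), which lay inside the range of sh-NC. In bulk tumors it ranged from 20.8 to 23.5 under sh-NC and from 17.8 to 24.4 under the sh-B7-H3 (1) label. The groups are therefore named by their labels. The 7 defining epithelial markers, among them CDH1 and EPCAM, reached 1 scaled FPKM in every group, and the 8 renal tubule markers summed to between 188 and 313 scaled FPKM across all libraries. Read totals were not in the tables, the relative depth of the libraries ranged from 0.468 to 1, and MIR6236, listed by its symbol, held between 6.01% and 79.7% of the summed FPKM of a library. For that reason FPKM values were divided by a median-ratio factor for each library, and every level below is this scaled FPKM.

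Upstream sequence is shown for Elf3 and Grhl1, the members whose RefSeq promoter windows (GRCm38.p6) held bases outside annotated exons. Of the 9 genes, 3 had a window of 250 bases before a start site. The window of Ovol2 lay wholly within an annotated exon and is not printed. Elf3 (chromosome 1, minus strand) is given from chr1:135258569-135258722, positions -250 to -97 from its RefSeq start site. The capitals mark CACCTG, the E-box read on the other strand as CAGGTG, which is the core motif of ZEB and SNAI repressors. Grhl1 (chromosome 12, plus strand) is given from chr12:24572037-24572282, positions -250 to -5 from the more upstream of its 2 start sites, and it held none of the motifs searched.
Elf3: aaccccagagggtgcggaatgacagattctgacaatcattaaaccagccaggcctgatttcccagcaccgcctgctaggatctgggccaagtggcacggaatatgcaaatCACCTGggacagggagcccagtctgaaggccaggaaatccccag
Grhl1: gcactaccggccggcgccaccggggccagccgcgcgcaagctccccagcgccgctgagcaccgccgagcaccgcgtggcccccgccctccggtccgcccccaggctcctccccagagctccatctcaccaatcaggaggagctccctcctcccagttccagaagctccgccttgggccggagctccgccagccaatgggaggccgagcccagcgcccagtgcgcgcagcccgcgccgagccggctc

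The E-box of Elf3 starts at position -140. An E-box was present in 17.2% of all 32851 windows of the same length, and no other member window held one. The ETS motif GGAAGT, read as ACTTCC on the other strand, was found once among the member windows, at position -149 of Ovol2, against 19.7% of all windows. The GRHL motif AACCNGTT, the OVOL motif CCGTTA and the STAT motif TTCNNNGAA, each searched on both strands, matched in none of the 4 member windows. They matched in 1.79%, 2.18% and 7.02% of all windows. These are matches of letters only.

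All 9 factors were higher in the sorted cells labelled sh-B7-H3 than in sorted sh-NC cells. In each gene, every one of the 6 libraries labelled sh-B7-H3 lay above every one of the 3 sh-NC libraries, which held for 11.0% of the 18347 genes detected in these libraries. The 9 genes were chosen with earlier results of these data known, so comparisons of their counts with all genes are descriptions here and below. The ratio of group means ran from 1.74 for KLF5 to 14.1 for GRHL1. Of the 9 genes, 8 passed the test at an adjusted p below 0.05 (limma, Benjamini-Hochberg adjustment over all genes tested), against 12.6% of 11424 genes in this direction. OVOL1 did not reach 1 scaled FPKM in 3 libraries and was left out of that test. GRHL1, GRHL2 and OVOL2 entered it only through the libraries labelled sh-B7-H3, since no sorted sh-NC library reached 1 scaled FPKM. ESRP2 reached it in sorted sh-NC only in replicate 1 (1.15, against 0.981 and 0.555). The count of 8 and the adjusted p values of GRHL1, GRHL2 and OVOL2 are therefore given as a description. In bulk tumors all 9 factors were also higher in every library labelled sh-B7-H3 (1) than in every sh-NC library, which held for 21.6% of 18277 genes, and 8 of 9 passed the test, where 12.8% of 11800 genes were called higher. GRHL1 and OVOL2 entered the bulk test only through the libraries labelled sh-B7-H3 (1). In bulk sh-NC, GRHL2 reached 1 scaled FPKM only in replicate 1 (1.13), and ESRP2 stayed below it in replicate 3 (0.776). This count too is a description, as are the adjusted p values of GRHL1 and OVOL2 in bulk tumors.

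**Figure D1:**
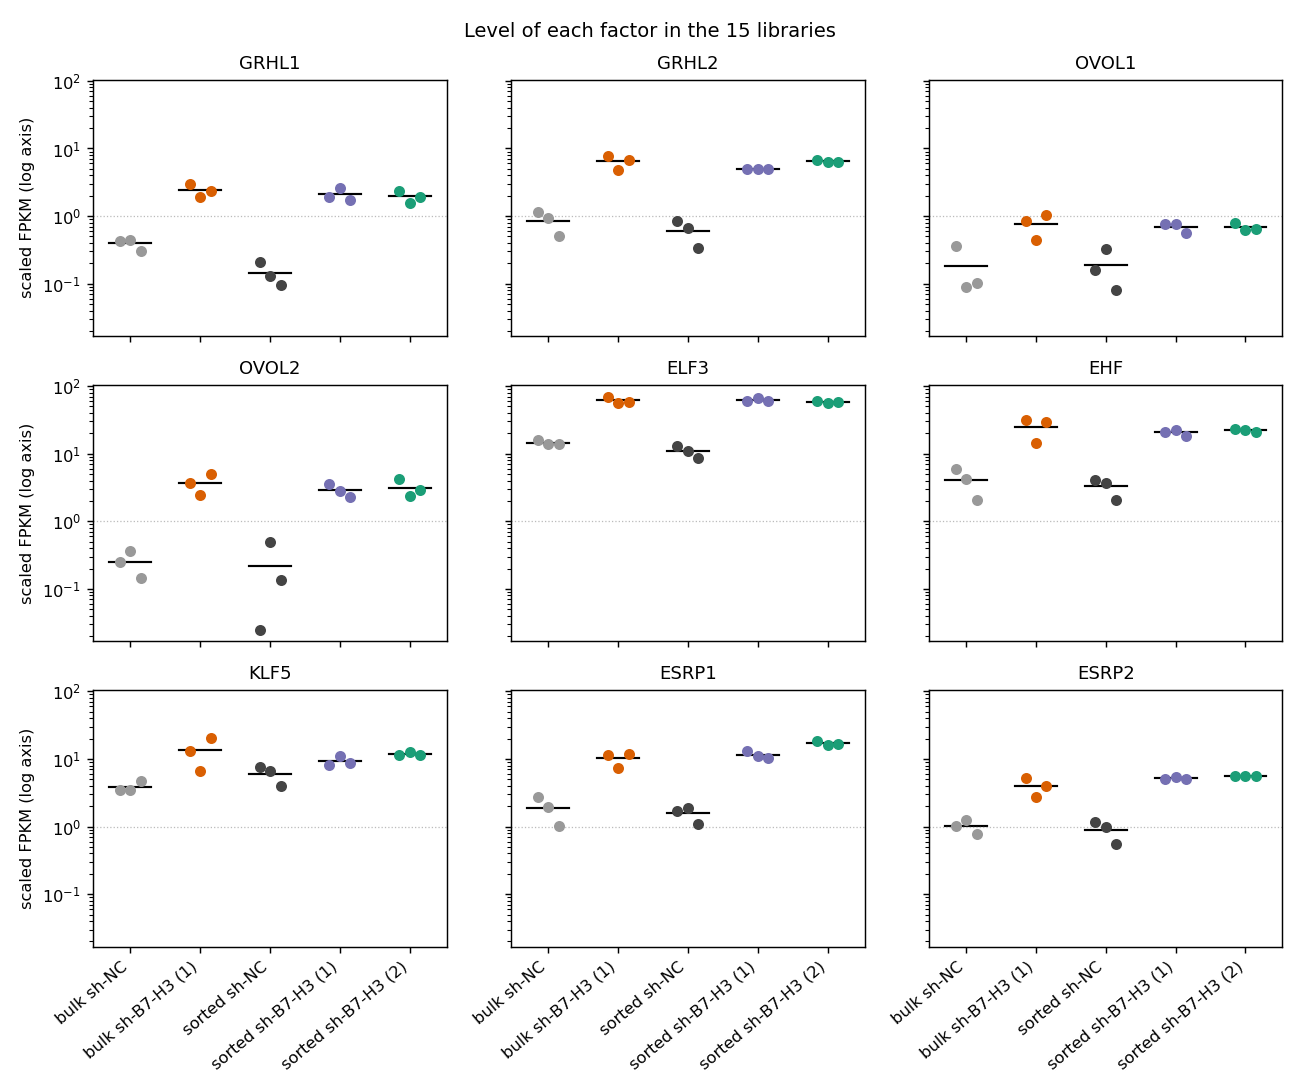
Scaled FPKM of each factor on a log axis in the 15 libraries, 1 panel per gene; points are libraries, horizontal bars are group means (n = 3), and the dotted line is 1 scaled FPKM. In every panel the libraries labelled sh-B7-H3 lie above the sh-NC libraries of the same material, and the gap is smallest in KLF5, at 7.63 against 8.07 in sorted cells.

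GRHL1 and GRHL2, the Grainyhead-like factors, went from below 1 scaled FPKM to clearly measured levels in sorted cells. GRHL1 (chr12:24572283-24617391, GRCm38) measured 0.209, 0.128 and 0.0947 in sorted sh-NC cells, 1.95, 2.61 and 1.72 under sh-B7-H3 (1), and 2.38, 1.58 and 1.89 under sh-B7-H3 (2). The libraries of both shRNAs mixed with each other and were clear of sh-NC. The log2 fold change for both shRNAs was 1.39 (SE 0.13, adjusted p = 2.99e-05) on the scale of log2(scaled FPKM + 1), which understates the change of low genes. GRHL2 (chr15:37233036-37363569) measured 0.834, 0.660 and 0.335 in sorted sh-NC cells. It rose to 5.002, 5.002 and 4.90 under sh-B7-H3 (1) and to 6.77, 6.35 and 6.28 under sh-B7-H3 (2), with a log2 fold change of 2.06 (SE 0.14, adjusted p = 3.66e-06). Both genes entered this test only through the libraries labelled sh-B7-H3, so their adjusted p values are a description. GRHL2 was also the Grainyhead-like gene with the higher level in all 15 libraries. The third family member, GRHL3, stayed below 0.06 scaled FPKM in all libraries.

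In bulk tumors the same genes started from slightly higher values. GRHL1 measured 0.428, 0.447 and 0.306 under sh-NC and 2.94, 1.93 and 2.33 under the sh-B7-H3 (1) label, with a log2 fold change of 1.28 (SE 0.14, adjusted p = 0.00319). GRHL2 measured 1.13, 0.932 and 0.502 under sh-NC and 7.69, 4.84 and 6.85 under sh-B7-H3 (1), with a log2 fold change of 2.00 (SE 0.19, adjusted p = 0.00267). In neither gene did the groups overlap, and the ratios of means were 6.09 for GRHL1 and 7.55 for GRHL2. GRHL1 entered the bulk test only through the libraries labelled sh-B7-H3 (1), so its adjusted p is a description.

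OVOL1 and OVOL2, the zinc finger repressors, were the least abundant members besides GRHL1. OVOL2 (chr2:144305175-144332146) measured 0.0250, 0.494 and 0.136 in sorted sh-NC cells, all below 0.5. It measured 3.60, 2.83 and 2.31 under sh-B7-H3 (1) and 4.17, 2.36 and 2.87 under sh-B7-H3 (2), and all 6 lay well above sh-NC. Its log2 fold change was 1.72 (SE 0.17, adjusted p = 5.40e-05) and the ratio of means 13.8. OVOL2 entered the tests in sorted cells and bulk tumors only through the labelled libraries, so its adjusted p values are a description. In bulk tumors OVOL2 went from 0.246, 0.362 and 0.148 to 3.72, 2.49 and 4.98, with a log2 fold change of 1.89 (SE 0.20, adjusted p = 0.00308).

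OVOL1 (chr19:5549136-5560646) had the lowest mean of the 9 factors in all groups but sorted sh-NC, and its libraries overlapped those of OVOL2 in both sh-NC groups. It measured 0.159, 0.325 and 0.0813 in sorted sh-NC cells, 0.751, 0.765 and 0.555 under sh-B7-H3 (1), and 0.779, 0.612 and 0.646 under sh-B7-H3 (2). In bulk tumors it measured 0.355, 0.0903 and 0.104 under sh-NC and 0.857, 0.436 and 1.03 under sh-B7-H3 (1). The groups were separate in both materials. Its values fell on whole multiples of a fixed step, from 6 to 73 steps per library, so each value rests on few units of signal. With no filter on low values, its log2 fold change in sorted cells was 0.51 (SE 0.07, adjusted p = 0.00216, limma), where 8.37% of 18347 genes were called higher. The exact two-sided permutation p was 0.0238 for 6 libraries against 3 and 0.1 for 3 against 3 in bulk tumors, each the smallest these group sizes allow. In bulk tumors without the filter the value for OVOL1 was 0.58 (SE 0.15, adjusted p = 0.0678, limma) and did not pass.

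ELF3 and EHF, the epithelial ETS factors, were the most abundant members in the libraries labelled sh-B7-H3 of sorted cells and bulk tumors. ELF3 (chr1:135253575-135258568) measured 12.9, 11.1 and 8.54 in sorted sh-NC cells, 59.3, 67.0 and 59.6 under sh-B7-H3 (1), and 59.4, 56.9 and 58.8 under the second shRNA. The log2 fold change was 2.38 (SE 0.12, adjusted p = 6.54e-07). Against all genes above 0 in the same group, its mean level moved from the 68.7th percentile in sorted sh-NC to 92.9 and 93.2 under the shRNAs. EHF (chr2:103263433-103303278) measured 4.09, 3.72 and 2.07 in sorted sh-NC cells, 21.0, 22.4 and 18.5 under sh-B7-H3 (1), and 23.4, 22.5 and 21.1 under the second shRNA. The log2 fold change was 2.42 (SE 0.15, adjusted p = 2.47e-06), and the groups were separate for both genes.

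In bulk tumors ELF3 measured 15.9, 13.8 and 14.1 under sh-NC and 69.9, 55.5 and 58.7 under the sh-B7-H3 (1) label, with a log2 fold change of 1.99 (SE 0.11, adjusted p = 0.00195). EHF measured 5.89, 4.16 and 2.08 under sh-NC and 31.2, 14.5 and 29.1 under the first shRNA. The log2 fold change was 2.37 with a larger error (SE 0.37, adjusted p = 0.00817), and replicate 2 of the labelled libraries lay well below the other 2. ELF3 and EHF lie on different chromosomes, as did most of the 9 genes, with only EHF and OVOL2 sharing chromosome 2.

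KLF5, the Krüppel-like zinc finger factor, moved least in sorted cells. KLF5 (chr14:99298691-99315036) measured 7.63, 6.54 and 4.02 in sorted sh-NC cells, 8.07, 11.0 and 8.86 under sh-B7-H3 (1), and 11.4, 12.6 and 11.4 under sh-B7-H3 (2). The lowest labelled library was only just above the highest sh-NC library. For both shRNAs its log2 fold change was 0.73 (SE 0.18, adjusted p = 0.0165), and without sorted sh-NC replicate 3, the lowest of its group, it was 0.51 (adjusted p = 0.0588). For sh-B7-H3 (1) alone it was 0.57 (SE 0.22, adjusted p = 0.145) and did not pass. For sh-B7-H3 (2) alone it was 0.89 (SE 0.20, adjusted p = 0.0195). This call was lost without replicate 2 or replicate 3 of that group or replicate 2 of sh-NC (adjusted p between 0.0546 and 0.0706). It was also lost with no filter, and was made in 9 of 13 settings.

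In bulk tumors KLF5 measured 3.47, 3.52 and 4.73 under sh-NC and 13.3, 6.62 and 20.3 under sh-B7-H3 (1). The labelled libraries had a mean of 13.4 ± 6.83 (SD, n = 3), and none overlapped sh-NC. The log2 fold change was 1.44 (SE 0.35, adjusted p = 0.0307). It did not pass when sh-NC replicate 1, 2 or 3 or labelled replicate 1 was left out (adjusted p between 0.0808 and 0.107). The call was also lost with no filter at either pseudocount, and was made in 7 of 13 settings. Without labelled replicate 2 it was 1.84 (adjusted p = 0.00264).

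ESRP1 and ESRP2, the epithelial splicing regulators, rose together. ESRP1 (chr4:11331933-11386783) measured 1.70, 1.91 and 1.08 in sorted sh-NC cells, 13.2, 11.2 and 10.3 under sh-B7-H3 (1), and 18.2, 16.0 and 16.9 under sh-B7-H3 (2). Its log2 fold change of 2.56 (SE 0.19, adjusted p = 6.16e-06) was the largest of the 8 members tested in sorted cells with a pseudocount of 1. With a pseudocount of 0.1 OVOL2 and GRHL1, which have the larger ratios of means, stood above it (3.56 and 3.13, against 3.12). ESRP2 (chr8:106130319-106136974) measured 1.15, 0.981 and 0.555 in sorted sh-NC cells, 4.98, 5.41 and 5.14 under sh-B7-H3 (1), and 5.61, 5.58 and 5.60 under the second shRNA. The log2 fold change was 1.76 (SE 0.11, adjusted p = 2.66e-06). In both genes the labelled libraries were clear of sh-NC, and ESRP1 exceeded ESRP2 in every library.

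In bulk tumors ESRP1 measured 2.75, 1.97 and 1.03 under sh-NC and 11.5, 7.41 and 11.9 under sh-B7-H3 (1), with a log2 fold change of 1.97 (SE 0.26, adjusted p = 0.00509). ESRP2 measured 1.00, 1.23 and 0.776 under sh-NC and 5.23, 2.73 and 3.998 under sh-B7-H3 (1), with a log2 fold change of 1.29 (SE 0.20, adjusted p = 0.00797). Replicate 2 of the bulk libraries labelled sh-B7-H3 (1) was the lowest of its group in all 9 genes. The same library had the highest sum of the 10 leukocyte markers in its group (662 scaled FPKM, against 349 and 549.9) and of the 8 skeletal muscle markers (714, against 37.8 and 216). Macrophage and endothelial sums were also highest there. Fibroblast markers (549, against 690) and T cell markers (18.5, against 19.5) were higher in replicate 1. MIR6236 held 74.4% of the summed FPKM of replicate 2, against 17.2% and 19.8%, and whether this bears on the lower values was not tested. Fewer tumor cells and less RNA per cell cannot be told apart in a bulk library.

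The order of the factors by level changed little between groups. ELF3 was first in all 5 groups and did not overlap with the next gene in any of them. In sorted sh-NC cells KLF5 (6.06 ± 1.85, SD, n = 3) and EHF (3.29 ± 1.07) followed, with overlapping libraries, and ESRP1, ESRP2 and GRHL2 (1.57 ± 0.43, 0.897 ± 0.308 and 0.610 ± 0.253) each overlapped the next. OVOL2, OVOL1 and GRHL1 could not be ranked, with means of 0.218, 0.188 and 0.144. In sorted cells labelled sh-B7-H3 (2) EHF (22.3 ± 1.18) and ESRP1 (17.0 ± 1.12) stood above KLF5 (11.8 ± 0.717), with no overlap between neighbors, and only OVOL2 and GRHL1 overlapped. KLF5 thus stood behind ELF3 alone in sorted sh-NC cells and behind ELF3, EHF and ESRP1 in the sorted cells labelled sh-B7-H3 (2).

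Each shRNA was also set against sorted sh-NC alone. Under sh-B7-H3 (1) 7 of the 9 factors passed, where 9.03% of 11163 genes were called higher, and KLF5 and the untested OVOL1 did not. Under sh-B7-H3 (2) 8 of the 9 passed, where 11.7% of 11243 genes were called higher. GRHL1, GRHL2 and OVOL2 entered each of these tests only through the libraries labelled sh-B7-H3. In sorted sh-NC, ESRP2 reached 1 scaled FPKM in replicate 1 alone. Both counts are therefore descriptions, and the comparisons share the 3 sh-NC libraries. For ELF3 the log2 fold changes were 2.42 (SE 0.16) and 2.34 (SE 0.16), and for OVOL2 they were 1.69 (SE 0.18) and 1.76 (SE 0.20).

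Set directly against each other, the shRNAs differed in ESRP1. ESRP1 was lower under sh-B7-H3 (1) than under sh-B7-H3 (2) by a log2 difference of -0.53 (SE 0.11, 95% confidence interval -0.79 to -0.27, adjusted p = 0.0496), and its libraries did not overlap. It was the only one of the 8 members tested that passed in the fit without pairing, against 1.64% of 11239 genes called lower. Same-numbered libraries of the shRNAs deviated together, and with the replicate number as a block 3 members passed as lower, ESRP1 (adjusted p = 0.0196), GRHL2 (adjusted p = 0.0359) and KLF5 (adjusted p = 0.0486), while the genes called rose from 198 higher and 184 lower to 1015 and 849. The call of ESRP1 was lost in 9 of 12 alternative settings, among them any 1 of 5 left-out libraries. GRHL2, ESRP2 and KLF5 were also lower in every sh-B7-H3 (1) library, so that 4 of 9 members showed this order, against 13.9% of genes. In the fit without pairing, the log2 difference of GRHL2 was -0.32 (95% confidence interval -0.52 to -0.13, adjusted p = 0.0824). That of ESRP2 was -0.10 (-0.29 to 0.10, adjusted p = 0.550) and that of KLF5 was -0.32 (-0.60 to -0.04, adjusted p = 0.187). For ELF3, EHF, GRHL1 and OVOL2 the libraries overlapped, with confidence intervals between -0.50 and 0.42.

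**Figure D2:**
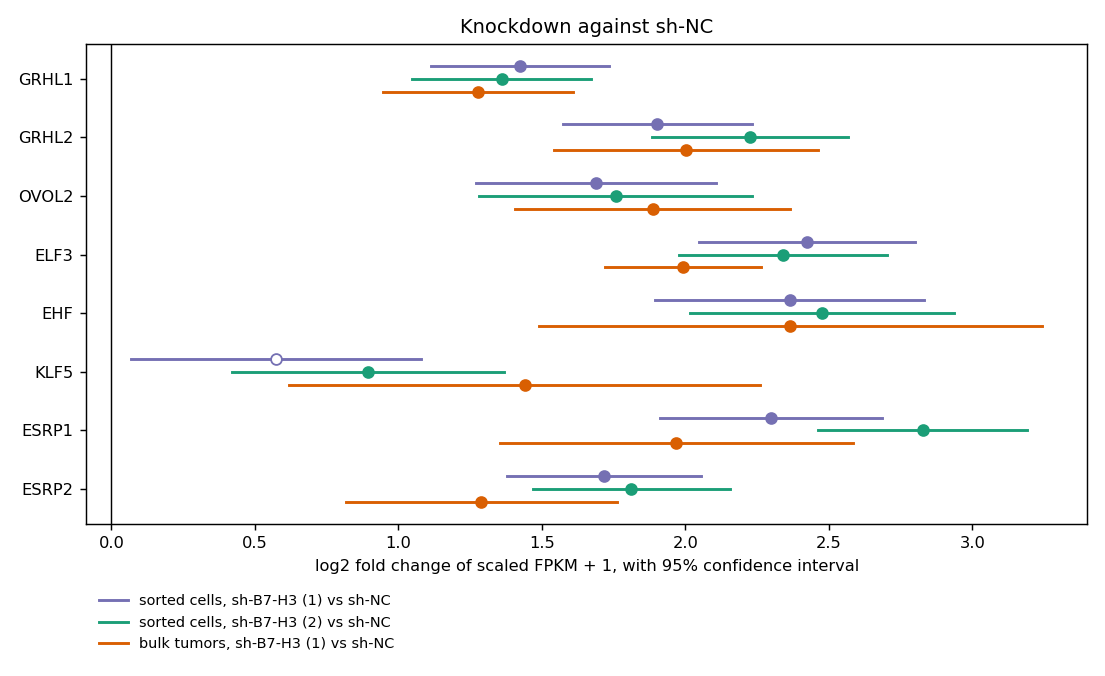
Log2 fold change of scaled FPKM + 1 against sh-NC with its 95% confidence interval for the 8 factors tested, for each shRNA in sorted cells and for sh-B7-H3 (1) in bulk tumors; filled points passed an adjusted p below 0.05 and the open point did not. All intervals lie to the right of 0, and the lowest estimate is 0.57 for KLF5 under sh-B7-H3 (1) in sorted cells.

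Bulk and sorted samples were compared under the same shRNA label. In sh-NC tumors 5 of the 9 factors could be tested between bulk and sorted samples, and limma called 0 of them, while 10.4% of 11418 genes were called higher in bulk and 6.48% lower. At an unadjusted p below 0.05 the count was 1, against 3828 of all 11418 genes. It was ELF3, with a log2 difference of 0.41 (SE 0.16, adjusted p = 0.120) and higher values in all 3 bulk libraries. GRHL1 was below the filter in this comparison, and its bulk values of 0.306 to 0.447 all lay above the sorted values of 0.0947 to 0.209. Under the sh-B7-H3 (1) label 0 of 8 tested factors passed between materials in limma, and 0 at an unadjusted p below 0.05 against 5839 of all 11677 genes, while 21.1% of 11677 genes were called higher in bulk and 17.1% lower. Without replicate 2 of the bulk libraries, the one lowest in all 9 factors, GRHL2, EHF and KLF5 passed as higher in bulk (log2 differences 0.47, 0.53 and 0.77).

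The effect of sh-B7-H3 (1) was compared between sorted cells and bulk tumors by an interaction term. None of the 8 factors tested passed in limma, and 0 did at an unadjusted p below 0.05 against 1767 of all 12062 genes, and the term was called positive in 0.249% and negative in 0.216% of 12062 genes. The largest positive difference was that of ELF3, 0.43 higher in sorted cells (95% confidence interval -0.01 to 0.88, adjusted p = 0.346). The largest negative one was that of KLF5, -0.87 (95% confidence interval -1.84 to 0.11, adjusted p = 0.378). For EHF the interval ran from -1.01 to 1.00, which is wide beside its log2 fold change of 2.37 in bulk tumors.

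Marker levels of other cells are given beside these results. The 10 leukocyte markers summed to 12.9 to 15.4 scaled FPKM in sorted sh-NC and 20.4 to 26.9 in sorted sh-B7-H3 (1). In sorted sh-B7-H3 (2) they summed to 12.9 in replicate 3, 13.0 in replicate 2 and 373 in replicate 1, the last close to bulk tumors (349 to 662). Without that library 8 factors still passed for both shRNAs, with ELF3 at 2.39 and ESRP1 at 2.49. The 8 macrophage markers summed to 62.0 to 63.7 in sorted sh-NC, 142 to 163 under sh-B7-H3 (1) and 130 to 480 under sh-B7-H3 (2). The fibroblast markers summed to 103 to 188 in bulk sh-NC tumors and 299.99 to 690 under sh-B7-H3 (1), against 36.4 to 81.8 in sorted sh-NC, 56.1 to 84.6 under sh-B7-H3 (1) and 120 to 161 under sh-B7-H3 (2). The 8 endothelial markers summed to at most 1.78 in 8 of 9 sorted libraries. The keratinocyte markers moved with the factors, from 5.88 to 10.3 in sorted sh-NC cells to 29.9 to 48.6 under the shRNAs, and from 6.14 to 9.77 to 24.98 to 34.01 in bulk tumors. Of the 11 keratinocyte markers in the table, KRT5 and TRP63, which define basal keratinocytes, stayed below 0.5 in all libraries. For both shRNAs in sorted cells, 0 of 6 leukocyte, 0 of 1 T cell, 3 of 6 macrophage, 0 of 6 fibroblast and 1 of 7 skeletal muscle markers tested rose. None fell, and 12.6% of all genes were called higher. For sh-B7-H3 (2) alone 3 of 6 fibroblast markers (COL1A1, COL1A2 and COL3A1) and the T cell marker LCK rose. LCK entered that test only through the libraries labelled sh-B7-H3 (2), since it was at most 0.718 in sorted sh-NC. For sh-B7-H3 (1) alone 1 of 4 leukocyte markers (SRGN) rose. The 3 collagens were also called lower under sh-B7-H3 (1) than under sh-B7-H3 (2). In bulk tumors 0 of 10 leukocyte, 2 of 2 T cell, 2 of 8 macrophage, 5 of 7 fibroblast and 6 of 8 skeletal muscle markers rose. There 1 of 7 endothelial markers fell, and 12.8% of all genes were called higher and 8.52% lower. CD3E, CD3G, CKM, MB and MYH1 entered the bulk test only through the libraries labelled sh-B7-H3 (1). The T cell and muscle counts in bulk tumors are therefore descriptions. Without bulk sh-NC replicate 3 the counts were 0 of 7 for fibroblast and 0 of 8 for skeletal muscle markers. The muscle count was also 1 without bulk sh-NC replicate 1 or labelled replicate 3 and 2 without bulk sh-NC replicate 2, and the endothelial call, CLDN5, was made in 4 of 13 settings. The part of these cells in the result was not tested.

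Without the scaling, the median over every gene tested was 0.20 on the log2 scale in the comparison of both shRNAs. That setting called 1798 genes higher and 284 lower, against 1439 and 905 with the scaling, and the 8 factors tested were called higher in both.

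Of the 7 defining epithelial markers 5 rose in sorted cells and 3 in bulk tumors, and none fell. All of them but CLDN7 are also in the list of linked epithelial genes below, so the counts of these lists are not separate. The tight junction gene CLDN7 changed most in sorted cells, with 3.45 on the log2 scale (SE 0.18, adjusted p = 7.21e-07). Within the keratinocyte list 11 genes were measured and 5 of them could be tested in sorted cells. Of these 5 genes 4 rose and none fell, where 12.6% of 11424 genes were called higher. These were IVL, a cornified envelope protein (log2 fold change 2.46, SE 0.34, adjusted p = 0.000506), the desmosomal cadherin DSG3 (2.24, SE 0.25, adjusted p = 0.000128), the basal keratin KRT14 (1.88, SE 0.26, adjusted p = 0.000428) and, named to complete the count, KRT10. DSG3 and KRT10 entered the test in sorted cells only through the libraries labelled sh-B7-H3, so their calls are a description. In bulk tumors 3 of 4 rose, and DSG3 entered in the same way. KRT14 ranged from 2.15 to 3.39 in sorted sh-NC cells and between 8.12 and 22.3 in the 6 libraries labelled sh-B7-H3. Among 7 renal tubule genes tested in sorted cells 0 rose and 1 fell, the homeobox gene EMX2 (log2 fold change -0.61, adjusted p = 0.0127), and in bulk tumors 1 of 7 rose, the cadherin CDH16 (0.70, adjusted p = 0.0470). That call was made in 4 of 13 settings, and the bulk count of the list was 0 with the replicate block and 4 without labelled replicate 2.

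Most epithelial genes that are linked in the literature to GRHL, ELF, OVOL or KLF5 factors moved in the same direction as the factors. This list was chosen with earlier results of these data known, so its counts and medians are a description. Of 20 listed genes, 19 could be tested in sorted cells, 16 rose and 0 fell, with a median log2 fold change of 1.91 against 0.01 over all genes tested, of which 12.6% were called higher and 7.92% lower. In bulk tumors 15 of 19 rose and 0 fell, with a median of 1.59 against 0.02, and 12.8% of all genes were called higher and 8.52% lower. The adhesion molecule EPCAM had log2 fold changes of 2.90 (SE 0.18, adjusted p = 2.47e-06) and 2.65 (SE 0.33, adjusted p = 0.00457) in sorted cells and bulk tumors. It measured 20.3, 27.4 and 17.2 in sorted sh-NC cells and 126 to 221 in the 6 libraries labelled sh-B7-H3. ST14, the membrane protease matriptase, had 2.89 in sorted cells and 2.36 in bulk tumors, its inhibitor SPINT1 had 2.86 and 1.45, and the small GTPase RAB25 had 2.76 and 2.29.

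CDH1, the adherens junction cadherin, was among the listed genes that did not pass. It measured 357, 261 and 210 in sorted sh-NC cells, 184, 229 and 223 under sh-B7-H3 (1), and 166, 194 and 182 under sh-B7-H3 (2), so the groups overlapped. Its log2 fold change was -0.46 (SE 0.17, adjusted p = 0.0854), and it was called lower in 2 of 16 settings. In bulk tumors it measured 173 to 202 under sh-NC and 142 to 193 under sh-B7-H3 (1), with a log2 fold change of -0.13 (adjusted p = 0.518).

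**Figure D3:**
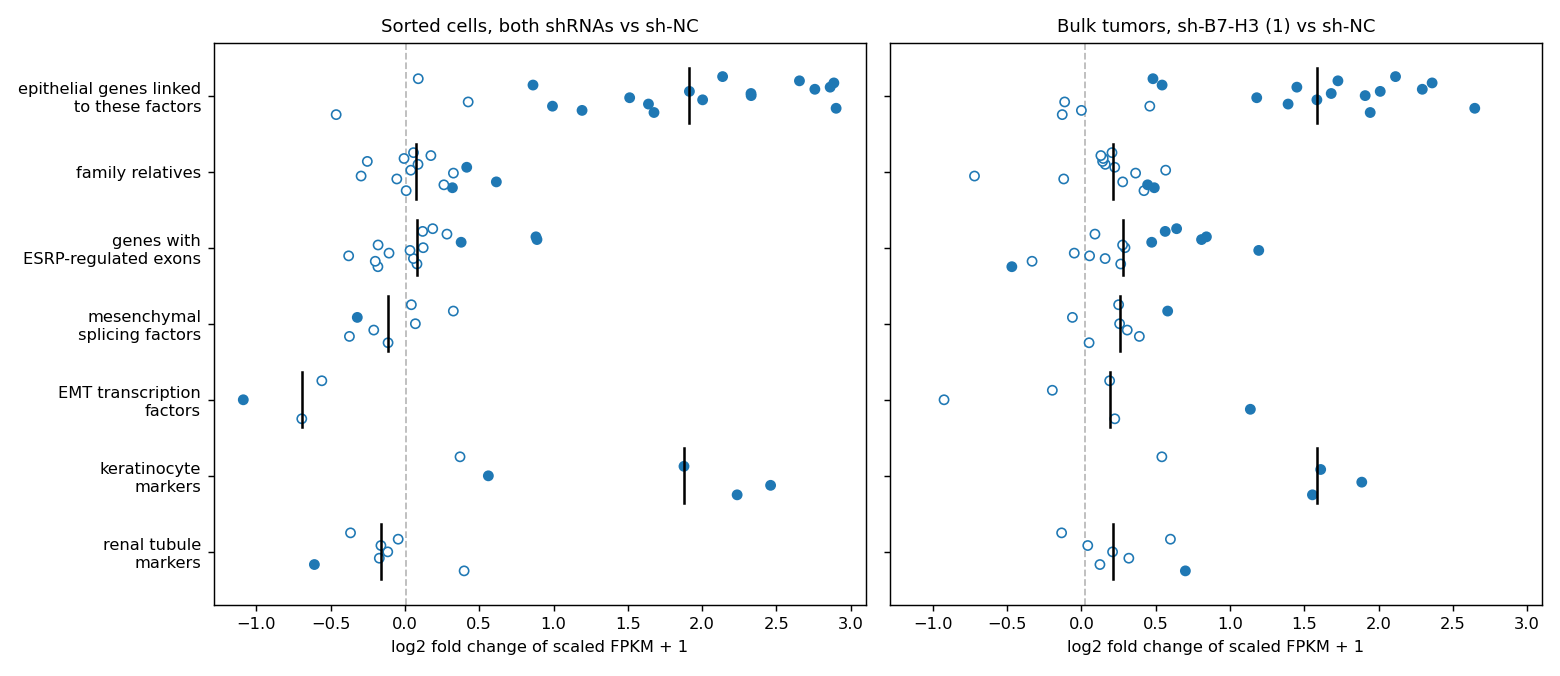
Log2 fold change of scaled FPKM + 1 for the genes of 7 lists, in sorted cells (left, both shRNAs against sh-NC) and bulk tumors (right, sh-B7-H3 (1) against sh-NC); filled points passed an adjusted p below 0.05, vertical bars are list medians and the dashed line is the median of all genes tested. The list of linked epithelial genes has a median of 1.91 on the left and 1.59 on the right, whereas the family relatives have medians of 0.07 and 0.22.

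Relatives of the 9 factors within their families moved little. Of 18 listed relatives 14 were tested in sorted cells, and 3 rose and 0 fell. These calls, of which those of KLF4 and ELF2 were each made in 8 of 16 settings, were KLF10 (log2 fold change 0.61, adjusted p = 0.00249), KLF4 (0.42, adjusted p = 0.0379) and ELF2 (0.32, adjusted p = 0.0388). In bulk tumors ELF2 (0.49, adjusted p = 0.0205) and ELF4 (0.45, adjusted p = 0.0284) rose and 0 fell, calls made in 9 and 7 of 13 settings. The epithelial ETS factors ELF5 and SPDEF stayed below 0.25 scaled FPKM in all 15 libraries, as did OVOL3.

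The genes whose exons ESRP proteins are known to select were compared at the level of whole genes, since the table holds no exon or isoform values. In sorted cells 3 of 15 rose and 0 fell, with a median log2 fold change of 0.08. OSBPL3, an oxysterol-binding protein, had 0.89 (SE 0.11, adjusted p = 0.000258), RALGPS2, an exchange factor for Ral, had 0.88 (SE 0.11, adjusted p = 0.000254), and the Notch inhibitor NUMB had 0.38 (adjusted p = 0.0493). In bulk tumors 6 rose and 1 fell, led by the growth factor receptor FGFR2 at 1.19 (SE 0.24, adjusted p = 0.0176), with RALGPS2 at 0.84 and OSBPL3 at 0.81; the gene that fell was ARFGAP2, named to complete the count and called in 3 of 13 settings. The count of 6 was 1 without labelled replicate 1, 3 without sh-NC replicate 1 or 3, 4 with the replicate block and 2 on FPKM as deposited. RALGPS2 entered the bulk test only through the libraries labelled sh-B7-H3 (1). NUMB was called in 5 of 16 settings in sorted cells. In sorted cells the value for FGFR2 was 0.03 (adjusted p = 0.955). Whether splicing of these genes changed was not tested.

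Splicing factors linked to mesenchymal programs showed small differences. Of 8 listed genes 7 were in the table, and in sorted cells only RBFOX2 passed, with a log2 fold change of -0.32 (adjusted p = 0.0390) that was -0.12 (adjusted p = 0.603) on FPKM as deposited. In bulk tumors only RBM47 passed (0.58, SE 0.12, adjusted p = 0.0182), an RNA-binding protein that is itself known from epithelial cells, and this call was made in 9 of 13 settings. RBM47 measured between 9.61 and 18.3 scaled FPKM in all 15 libraries.

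ZEB1, the transcriptional repressor of epithelial genes and a known target of OVOL factors, was lower in every sorted library labelled sh-B7-H3 than in every sorted sh-NC library. It measured 10.8, 9.18 and 6.72 in sorted sh-NC cells, 3.08, 5.61 and 5.26 under sh-B7-H3 (1), and 2.86, 2.90 and 2.69 under sh-B7-H3 (2). For both shRNAs the change was -1.09 on the log2 scale (SE 0.22, adjusted p = 0.00590). It was -1.36 (adjusted p = 0.00126) for sh-B7-H3 (2) alone and -0.82 (adjusted p = 0.0546) for sh-B7-H3 (1) alone, which did not pass. TWIST2, another EMT factor, passed for sh-B7-H3 (1) alone (-1.05, adjusted p = 0.0343) and not for both (-0.69, adjusted p = 0.141). ZEB2, the paralog of ZEB1, measured 7.08, 4.39 and 3.46 in sorted sh-NC cells and 1.90 to 3.52 under the shRNAs, with a log2 fold change of -0.56 (adjusted p = 0.0681). In bulk tumors ZEB1 measured 9.08, 7.85 and 6.86 under sh-NC and 6.46, 7.27 and 6.57 under sh-B7-H3 (1), with a log2 fold change of -0.20 (adjusted p = 0.255), and ZEB2 had 0.19 (adjusted p = 0.263). Of the 6 EMT transcription factors listed, 3 were tested in sorted cells and 5 in bulk tumors. In bulk tumors TWIST1 rose (1.14, SE 0.22, adjusted p = 0.0151) beside the higher fibroblast markers there. TWIST1 entered that test only through the libraries labelled sh-B7-H3 (1).

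The factors also varied together across the 9 sorted libraries. Over these libraries, which share the 3 groups, Pearson's r between pairs of the 9 factors on the log2 scale ranged from 0.764 (OVOL2 and KLF5) to 0.998 (EHF and ESRP2), with a median of 0.959. After the group means were subtracted, r between pairs of 8 factors ranged from 0.0682 to 0.976 over all 15 libraries, with a median of 0.599. OVOL1, which did not reach 1 scaled FPKM in 3 libraries, was left out. The 15 libraries include bulk sh-B7-H3 (1) replicate 2, the lowest of its group in all 9 factors. Its part in these values was not tested, and sorted libraries alone were not examined. The 5 genes most like the mean of these 8 factors over the 9 sorted libraries, among 11280 genes, were PROM2, ST14, MYO3B, PLET1 and ERBB3, with r between 0.996 and 0.997. PROM2, a membrane protein of epithelial protrusions, averaged 3.33 scaled FPKM in sorted sh-NC cells and 22.3 and 23.3 under the shRNAs, and PLET1, a surface protein of progenitor epithelia, averaged 7.19, 61.0 and 62.5. A value of r of at least 0.9 was shared by 717 genes, and 255 genes had -0.9 or less.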

How the data were processed

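RNA was sequenced from 15 libraries in 5 groups of 3, the study's biological samples. The authors deposited FPKM values per gene, which were used here, and a smaller table whose log2 values equal log2(FPKM + 1) for 999 matched genes and which holds 8 of the 9 members. The submitters' processing notes name mm10; the aligner, counter and annotation are not given in the sources used here, so neither is their treatment of strand or of reads shared between genes. Of 24917 entries, 26 symbols turned into dates were left out. FPKM was divided by median-ratio factors (0.650 to 1.18) set on the 9872 genes that reached 1 FPKM throughout.

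A gene entered a comparison if 3 of its libraries reached 1 scaled FPKM, and was tested on log2(scaled FPKM + 1) with limma 3.58.1 (trend; R 4.3.3), with Benjamini-Hochberg adjustment over all genes tested and calls at an adjusted p below 0.05. There were 8 comparisons. OVOL1 was tested without the filter and by an exact permutation test. Python 3.11.15, numpy 2.4.6, pandas 2.3.3, scipy 1.17.1 and matplotlib 3.10.9 were used, and the test was checked on simulated data. Alternatives were FPKM as deposited, a pseudocount of 0.1, no filter, a replicate block, all groups in 1 fit and leaving out each library. Deviations of same-numbered libraries from their group means correlated at 0.209, 0.229 and 0.209 between sorted sh-B7-H3 (1) and (2). Since the labels name no shared batch, a pairing of these groups rests on these values alone. Differently numbered libraries were not compared. No filter with a pseudocount of 0.1 was added after seeing the data.

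The members and lists were chosen with earlier results of these data known. Named beside the 9 members were up to 3 called genes with the largest change per list and comparison, CDH1, ZEB1, ZEB2 and RBM47, CD276, and the 5 genes most like the members. No counting interval is given, since the tables lack read totals.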

Additional observations from a re-analysis of the deposited data

Results flagged for a closer look

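ELF3 in sorted sh-B7-H3 (1) replicate 2 measured 66.97 scaled FPKM and stood apart from the other 5 sorted libraries carrying an shRNA against B7-H3, which lay between 56.9 and 59.6. The 9 factors were screened in this group of 6 libraries, and chance marks about 1 in 20 such groups. ESRP1 differed between the shRNAs in sorted cells by a log2 difference of -0.53 (adjusted p = 0.0496, limma), with every sh-B7-H3 (1) library below every sh-B7-H3 (2) library, and over the alternatives its adjusted p ranged from 0.0196 to 0.225.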

How the results depend on the processing

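The number of factors called stayed within 1.5 times for both shRNAs, each shRNA alone and bulk tumors against sh-NC, and no factor reversed there under the alternatives run. Between the shRNAs, where 1 factor was called, the count was 0 with a pseudocount of 0.1, with no filter, with both together and with all groups in 1 fit, and 0 to 1 when a library was left out. With the replicate block it was 3 (ESRP1, GRHL2 and KLF5), and the block moved no other count of factors. In each of the other pairs of groups at least 1 correlation of same-numbered libraries was below 0.1, and those groups share only a number. Between bulk and sorted sh-NC, where 0 were called, the count was 1 with no filter, with no filter and a pseudocount of 0.1, and with all groups in 1 fit, and 0 to 1 when a library was left out (ELF3 without sorted replicate 1, KLF5 without sorted replicate 3). Between bulk and sorted sh-B7-H3 (1) it was 0 to 3 when a library was left out.

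On FPKM as deposited, bulk against sorted sh-B7-H3 (1) reversed for GRHL1 (-0.060) and EHF (-0.093), and the interaction for GRHL2 (0.12), EHF (0.21) and OVOL2 (0.031). With a pseudocount of 0.1, with or without the filter, the interaction was 0.091 for GRHL2, 0.029 for EHF and 0.077 for OVOL2. Leaving out a library, the difference between the shRNAs ran from -0.052 to 0.17 for GRHL1 and from -0.21 to 0.10 for OVOL2. Bulk against sorted sh-NC ran from -0.074 to 0.51 for EHF, from -0.050 to 0.39 for ESRP1 and from -0.050 to 0.19 for ESRP2. Bulk against sorted sh-B7-H3 (1) ran from -0.12 to 0.049 for ELF3 and from -0.29 to 0.020 for ESRP1, and the interaction from -0.27 to 0.046 for GRHL2 and from -0.34 to 0.32 for EHF. None of these reversed values was called in the comparison as reported, and the cause was not tested. Where a library was left out, genes tested were kept and its group was assumed to vary like the others.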
